A study of Arachis hypogaea with 14 samples.

Results

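Small RNAs of seeds of the peanut (Arachis hypogaea) line 8106 were compared between 35 and 15 days after flowering (DAF), the stages between which the young seed swells inside the pod. The members were chosen by label and not by any measured value: they were the 3 small RNA libraries of 8106 at 35 DAF and the 3 of 8106 at 15 DAF, 6 of the 12 small RNA libraries of the series. Line 8106 is a recombinant inbred line with medium-sized pods, grown with no treatment named in the labels, and whole fresh seeds were the tissue. The other line of the study, 8107, a sister inbred line with very large pods and with 3 libraries at each stage, is used here to test where the stage change of 8106 differed from it. Its libraries also entered the filter on low values and the estimate of the spread behind the p-values of 8106. The labels do not say how many plants a library holds or whether replicates came from separate plants, so the p-values measure the spread between these libraries, which may be technical. A seed library mixes embryo, seed coat and endosperm, and fewer cells of a type and less of a small RNA per cell cannot be told apart in it.

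Plant microRNAs are cut as a duplex from a hairpin precursor by DICER-LIKE 1. One strand, the guide, is loaded into ARGONAUTE 1 and directs the cutting or silencing of nearly complementary transcripts, while the opposite strand is usually degraded. Conserved families act on transcription factors that set developmental timing and organ growth, on auxin and nutrient responses, and in legumes on many NB-LRR resistance genes. The families miR156 and miR172 are known as a pair that act on the opposite sides of phase change, miR156 on SPL factors and miR172 on AP2-like factors.

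The sequences below carry the main results. They are given 5′ to 3′ as the authors' table lists them, with the seed (bases 2 to 8) in capitals. A name opens with a code for the plant whose registered miRNA the sequence matched: ahy stands for peanut, mtr for Medicago truncatula, gma for soybean, ptc for poplar, mdm for apple, ppe for peach and csi for orange. L and R count bases added or removed at the 5′ and 3′ end, ss gives substitutions, and PC marks a candidate that the authors predicted. The guides of miR156, miR167 and miR166 and forms of miR319, miR3518 and miR4376 were higher at 35 DAF as deposited, miR166 not with every library scaled to the same total.
mtr-miR156e: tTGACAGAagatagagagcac
ahy-miR156b-5p_R+2: tTGACAGAagatagagagcacca
ppe-miR156a_R+1_1ss5AG: tGACGGAAgaaagagagcaca
ahy-miR167-5p: tGAAGCTGccagcatgatctt
mtr-miR166a: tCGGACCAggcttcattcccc
mtr-miR319a-3p_L+1_1ss21CT: tTTGGACTgaagggagctcct
ahy-miR3518: tGACCTTTggggatattcgtg
gma-miR4376-5p_R-1_2ss16AG21GA: tACGCAGGagagatggcgcta
Opposite strands of 3 of these families were lower at 35 DAF, as were the guides of miR172, miR390 and miR395 and other forms of miR156 and miR319.
ptc-MIR156c-p3_1ss12AC: gCTCACTTctccttctgtcagct
ahy-miR167-3p_L-1: gATCATGTggcagtttcacc
mtr-miR166e-5p: gGAATGTTggctggctcgagg
mdm-miR156a_1ss11GA: tGACAGAAgaaagtgagcac
mtr-miR319a-3p_R+1_2: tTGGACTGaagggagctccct
mtr-miR172d-3p_R+1: aGAATCTTgatgatgctgcag
mtr-miR390: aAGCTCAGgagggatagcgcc
mtr-miR395a_L+1R-1_1ss21TC: tATGAAGTgtttgggggaacc
Within miR156, mtr-miR156e and ahy-miR156b-5p_R+2 share the seed TGACAGA. The form mdm-miR156a_1ss11GA starts a base later and therefore has the seed GACAGAA.

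The authors' table gives normalized reads for 795 different sequences, of which 273 carry the name of a known miRNA, 140 are other arms of known hairpins and 382 are predicted candidates. The listed values summed to 998924 to 1086382 normalized reads in the libraries at 35 DAF, against 660450 to 684045 at 15 DAF, from an estimated 1482576 to 3243623 and 1468686 to 1907306 reads. Between 39.4 and 51.7% of entries were listed at 0 in a library at 35 DAF, and 36.0 to 44.0% at 15 DAF. Except in 35 DAF replicate 2, no value between 0 and the equivalent of 6.0 reads was listed, so a listed 0 does not show absence. At both stages the library numbered 2 stood apart from its group and in the same way: sequences of 21 nt made up 75.5% of its values at 35 DAF, against 63.1 and 59.3% in the other libraries of that stage, and 65.3% at 15 DAF, against 54.9 and 59.8%. The counts over all entries and family sums are therefore given below also without the libraries numbered 2.

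Of 395 entries tested, 52 were higher and 91 lower at 35 DAF than at 15 DAF at an adjusted p under 0.05 (limma on log2(value + 1), Benjamini-Hochberg over all 395). That is 36.2% of the entries, 13.2% in the upward and 23% in the downward direction, and for 44.6% the 3 libraries of one stage did not overlap those of the other. Without the libraries numbered 2, 64 rose and 88 fell, and with the replicate number as a block 71 rose and 101 fell. The split depended on how libraries were scaled. With every library brought to the same total 24 rose and 127 fell, whereas quantile normalization gave 60 higher and 73 lower and median centring 56 higher and 73 lower. The median log2 difference of all 395 entries was -0.24 as deposited, -0.77 with equal totals, 0.12 after quantile normalization and -0.04 after median centring, so a change is to be read against that shift. The 2 most abundant entries, ahy-miR167-5p and gma-miR482b-3p, took 65.3 to 70.1% of a library's values at 35 DAF and 58.2 to 60.7% at 15 DAF.

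**Figure D1:**
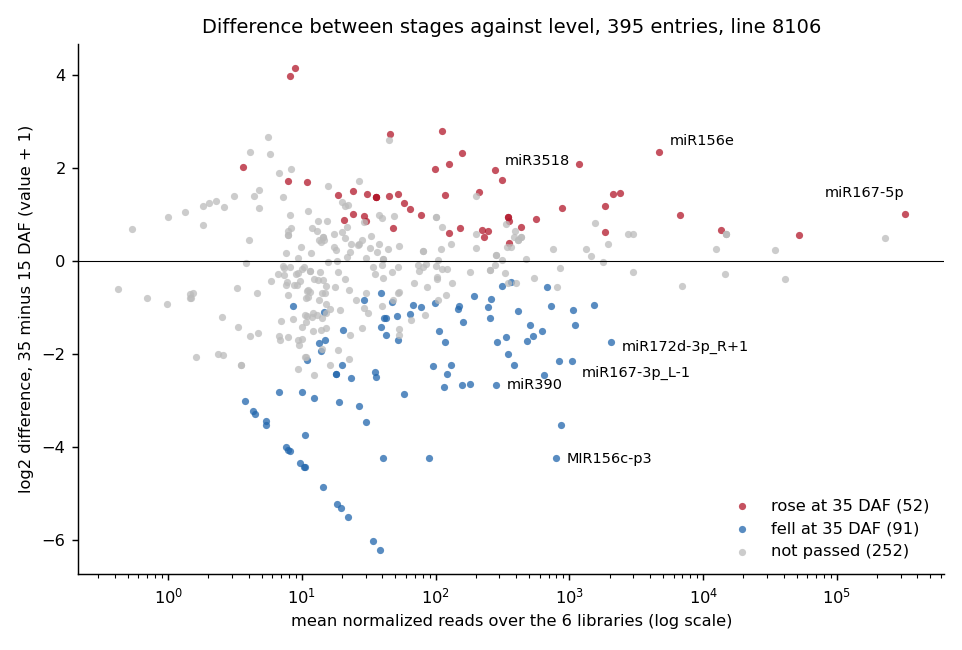
Log2 difference between 35 and 15 DAF (35 minus 15, on log2(value + 1)) of the 395 tested entries of line 8106 against the mean normalized reads of the 6 libraries on a log axis, red for the 52 that rose, blue for the 91 that fell and grey for the 252 that did not pass. Rising entries are found up to the highest levels (miR167-5p), while the steep blue line at the lower left holds entries listed at 0 in all libraries at 35 DAF, whose position is set by their level at 15 DAF.

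As deposited, known miRNAs were about evenly split, with 36 of 171 higher and 39 lower, whereas of 158 candidates 5 were higher, 34 lower and 119 did not pass, a falling share close to the 23% of all entries. Hairpin arms had 11 of 66 higher and 18 lower. By length, 31 of 162 entries of 21 nt rose and 57 fell, 12 of 72 entries of 22 nt rose and 20 fell, and of 95 entries of 24 nt, the size of heterochromatic siRNAs, 0 rose and 4 fell. Of the entries that fell, 17 were listed at 0 in all 3 libraries at 35 DAF. Of those that rose, 2 were listed at 0 in all 3 libraries at 15 DAF. Some entries named below met the filter on low values only with the libraries of 8107 counted. They were mtr-miR2199_1ss17AG, ahy-MIR398-p5_1ss9CA, mtr-miR390_L+1, ppe-MIR399k-p5, mtr-miR172b_R+1, mtr-miR393a_R+1_1, mtr-miR393a_R+1_2, mtr-miR159b_R-1_1ss7GT and ptc-miR6478_R-2.

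The phase-change families moved apart, and within miR156 the forms moved apart too. mtr-miR156e, which guides cleavage of SPL transcripts, had 7149, 10512 and 5767 normalized reads at 35 DAF, against 1266, 1724 and 1511 at 15 DAF. All 3 libraries at 35 DAF lay above all 3 at 15 DAF, with a log2 difference of 2.35 ± 0.22 (SE, n = 3 libraries a stage here and below; limma adjusted p = 1.18e-05). The longer form ahy-miR156b-5p_R+2, with the same seed, had 20.2, 10.1 and 23.04 at 35 DAF and was listed at 0 in every library at 15 DAF. ppe-miR156a_R+1_1ss5AG, with another seed, had 136, 222 and 122 at 35 DAF, against 33.9, 47.8 and 36.1 at 15 DAF (1.97 ± 0.28, limma adjusted p = 0.000241). In the authors' degradome table, where a lower alignment score is a better match, mtr-miR156e was listed with SPL18 (score 0), SPL3 and SPL12 (2) and SPL6 and SPL13A (3).

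A miR156 form with a different seed went the other way. mdm-miR156a_1ss11GA had 24.2, 42.2 and 23.7 normalized reads at 35 DAF, against 149, 276 and 182 at 15 DAF (-2.71 ± 0.32, limma adjusted p = 7.04e-05). It too was listed with SPL transcripts, among them SPL9, at a score of 3. Of 4 tested entries with its seed GACAGAA, it was the 1 that fell, and the other 3 did not pass. Among those 3, mtr-miR156b-5p (-0.10) was listed with SPL3, SPL6 and SPL9, each at a score of 1. The opposite strand ptc-MIR156c-p3_1ss12AC showed the lowest difference among hairpin arms listed above 0 at both stages. It had 86.4, 46.9 and 110 at 35 DAF, against 1779, 1170 and 1535 at 15 DAF (-4.25 ± 0.30, limma adjusted p = 1.66e-06). gma-MIR156o-p3_2ss21GA23TA, also an opposite strand, was listed at 0 throughout at 35 DAF and had 44.6, 42.6 and 45.8 at 15 DAF. In contrast, ahy-miR156b-3p, the opposite strand of the peanut-registered hairpin, had 277, 401 and 258 at 35 DAF, against 102, 123 and 105 at 15 DAF (1.48 ± 0.18, limma adjusted p = 7.57e-05). Summed over all of its forms, miR156 stood at 8847 ± 2623 at 35 DAF and 3838 ± 41.2 at 15 DAF (mean ± SD; 1.16 ± 0.19, limma adjusted p = 0.000357). Summed over known entries alone, without the other arms of the hairpins, the log2 difference of miR156 was 2.07.

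miR172, which acts on AP2-like factors, was lower on both strands. mtr-miR172d-3p_R+1 had 880, 1068 and 891 normalized reads at 35 DAF, against 2880, 3266 and 3304 at 15 DAF (-1.74 ± 0.14, limma adjusted p = 4.95e-06). All 3 tested forms named for the 3′ strand, of which mtr-miR172d-3p_R+2_1 and mtr-miR172d-3p_R+2_2 share their listed values, and both named for the 5′ strand fell. mtr-miR172b_R+1, with the same seed and no strand in its name, had 8.08, 5.02 and 4.74 at 35 DAF, against 12.1, 5.19 and 10.5 at 15 DAF, did not pass (-0.52 ± 0.45, limma adjusted p = 0.437) and was chosen after its values were seen. The sum of the family fell by 1.71 on the log2 scale (limma adjusted p = 4.13e-06). The degradome table listed mtr-miR172d-3p_R+1 with AP2 and RAP2-7, each at a score of 1, and mtr-miR172b_R+1 with the same genes at a score of 2. Of the 25 tested members of the SPL and phase change list (miR156, miR157 and miR172), 6 rose, 9 fell and 10 did not pass. Over all 395 entries 13.2% rose and 23% fell. The median log2 difference of the list was -0.68, against -0.24 over all 395 entries. After quantile normalization the median of this list was 0.12, as was that of all entries.

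**Figure D2:**
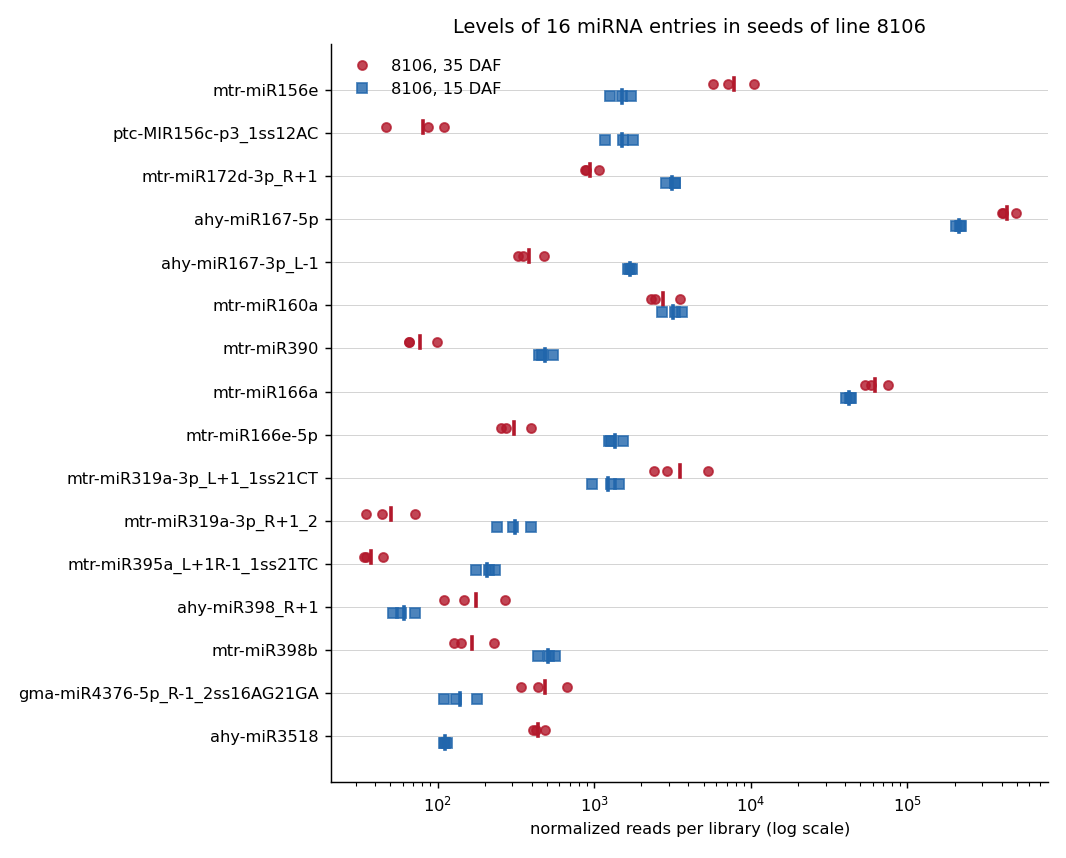
Normalized reads (log axis) of 16 miRNA entries in each library of line 8106, red circles for the 3 libraries at 35 DAF and blue squares for the 3 at 15 DAF, with a vertical tick at each mean. The stages overlap for mtr-miR160a and are apart for the other 15 entries, with mtr-miR156e higher and mtr-miR172d-3p_R+1 lower at 35 DAF.

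Among auxin families, the miR167 guide rose while miR390 and the opposite strand of miR393 fell. ahy-miR167-5p, of a family that acts on the auxin response factors ARF6 and ARF8, was the most abundant entry, with 406251, 491869 and 401955 normalized reads at 35 DAF, against 203913, 218322 and 216991 at 15 DAF. The stages did not overlap, and the log2 difference was 1.02 ± 0.14 (limma adjusted p = 0.000201), but 0.28 with a limma adjusted p of 0.329 under quantile normalization. Its opposite strand ahy-miR167-3p_L-1, chosen after its values were seen, had 350, 480 and 327 at 35 DAF, against 1737, 1700 and 1638 at 15 DAF (-2.15 ± 0.16, limma adjusted p = 1.83e-06). mtr-MIR167a-p3_1ss14TC, from another miR167 hairpin, was listed at 0 throughout at 35 DAF and had 47.9, 36.4 and 34.0 at 15 DAF. In the degradome table ahy-miR167-5p was listed with MED12 at a score of 3.5, and ARF6 stood beside a shorter form, mtr-miR167a_L+1R-2, at a score of 4.

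miR390 triggers the trans-acting siRNAs that silence ARF3 and ARF4. mtr-miR390 had 66.2, 98.8 and 65.7 normalized reads at 35 DAF, against 443, 547 and 465 at 15 DAF (-2.66 ± 0.19, limma adjusted p = 1.83e-06). mtr-miR390_L+1 was listed at 0 in all libraries at 35 DAF, against 5.11, 13.5 and 13.9 at 15 DAF. The miR393 sum, of a family that acts on auxin receptors of the TIR1 class, stood at 12.3 ± 5.72 at 35 DAF and 28.4 ± 3.91 at 15 DAF (-1.24 ± 0.36, limma adjusted p = 0.0135), a call lost without 15 DAF replicate 3 (-1.16). Its form ptc-miR393a-3p, the opposite strand, had 4.44, 3.68 and 0 at 35 DAF, against 17.2, 25.6 and 23.5 at 15 DAF (-2.95 ± 0.61, limma adjusted p = 0.00314). The guide forms mtr-miR393a_R+1_1 and mtr-miR393a_R+1_2, which share their listed values and are those that the degradome table lists with TIR1 and AFB2, had 12.9, 9.71 and 6.10 at 35 DAF, against 6.97, 3.46 and 8.39 at 15 DAF, and did not pass (0.55 ± 0.39, limma adjusted p = 0.317). These guide forms were chosen after their values were seen. mtr-miR160a, which acts on ARF10, ARF16 and ARF17, had 2454, 3526 and 2296 at 35 DAF, against 2700, 3633 and 3284 at 15 DAF, with stages that overlapped (-0.23 ± 0.21, limma adjusted p = 0.443). It passed with equal totals (-0.84), after quantile normalization (-0.68) and under voom (-0.39). The opposite strand gma-MIR160e-p3_1ss5GA, chosen after its values were seen, had 123, 136 and 135 at 35 DAF, against 437, 427 and 463 at 15 DAF (-1.75 ± 0.11, limma adjusted p = 1.29e-06). The auxin list had 22 tested members, of which 3 rose and 7 fell (13.2% and 23% over all entries). The other 12 missed the threshold, and the median was -0.12. With equal totals 1 rose and 9 fell, and with the replicate number as a block 5 rose and 7 fell. The median was 0.17 after quantile normalization and 0.09 after median centring.

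Among families of growth and organ development, guides of miR166 rose as deposited, though not with equal totals, and the forms of miR319 were split. mtr-miR166a, which acts on the HD-ZIP III factors that set organ polarity and vascular development, had 58724, 75073 and 53612 normalized reads at 35 DAF, against 40612, 43850 and 42658 at 15 DAF (0.55 ± 0.14, limma adjusted p = 0.0106). With equal totals its difference was -0.06, so its direction rests on the scaling, and under quantile normalization it was 0.18 with an adjusted p of 0.745. mtr-miR166a_1ss20CT had 15499, 21131 and 13686 at 35 DAF, against 9957, 11257 and 10230 at 15 DAF (0.66 ± 0.16, limma adjusted p = 0.00866, and 0.05 with equal totals). The form mdm-miR166a_L+2R-2, chosen after its values were seen, had 2439, 2808 and 2386 at 35 DAF, against 1073, 1120 and 1175 at 15 DAF (1.18 ± 0.11, limma adjusted p = 1.35e-05). As deposited, 10 of the 13 tested guide forms of miR166 rose and 0 fell, while 6 of 7 forms of the 5′ strand fell and 0 rose. Over all entries 13.2% rose and 23% fell. Many of these forms are variants of the same sequence, so they are not independent members. On the opposite strand, mtr-miR166e-5p had 274, 396 and 254 at 35 DAF, against 1249, 1523 and 1279 at 15 DAF (-2.15 ± 0.19, limma adjusted p = 8.74e-06), and was chosen after its values were seen. The degradome table listed mtr-miR166a with ATHB-15 (score 2.5) and with REV, ATHB-8 and ATHB-14 (3).

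miR319 acts on TCP factors that limit leaf and organ growth, and its forms went in both directions. mtr-miR319a-3p_L+1_1ss21CT had 2919, 5296 and 2411 normalized reads at 35 DAF, against 967, 1433 and 1274 at 15 DAF (1.47 ± 0.29, limma adjusted p = 0.00249). mtr-miR319a-3p_R+1_2 had 34.7, 72.3 and 44.1 at 35 DAF, against 239, 393 and 305 at 15 DAF (-2.65 ± 0.30, limma adjusted p = 5.38e-05). The rising form was listed in the degradome table with GAM1 (score 4) and not with a TCP symbol, and the falling form with TCP2 (2.5), TCP4 (3) and TCP3 (3.5). A further form that rose, gma-miR319f_R+1, was listed with TCP4 (2.5), TCP2 (3) and TCP3 (3.5). It had 87.7, 144 and 78.6 at 35 DAF, against 39.0, 58.9 and 55.0 at 15 DAF (0.98 ± 0.27, limma adjusted p = 0.0146), and was chosen after its values were seen. Its call was lost with equal totals (0.38), with the 6 libraries of 8106 alone (0.98) and without 15 DAF replicate 1 (0.80). The family sum, most of which is the rising form, stood at 3818 ± 1630 at 35 DAF and 1842 ± 358 at 15 DAF (0.99 ± 0.29, limma adjusted p = 0.0135), and it did not pass with equal totals (0.38) or without 15 DAF replicate 1 (0.83).

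The miR159 guide, among the most abundant entries, did not pass, and its opposite strands fell. mtr-miR159a_1ss21AT, which acts on GAMYB-like factors, had 31950, 55214 and 26470 normalized reads at 35 DAF, against 25903, 35470 and 31438 at 15 DAF, with stages that overlapped (0.23 ± 0.27, limma adjusted p = 0.555; -0.38 with equal totals). Both opposite strands were chosen after their values were seen. gma-miR159a-5p_2ss19TA20TA had 243, 257 and 175 at 35 DAF, against 769, 705 and 739 at 15 DAF (-1.73 ± 0.14, limma adjusted p = 4.19e-06). ahy-MIR159-p5 had 307, 502 and 201 at 35 DAF, against 703, 1129 and 881 at 15 DAF (-1.50 ± 0.36, limma adjusted p = 0.00694). The low form mtr-miR159b_R-1_1ss7GT had 0, 4.69 and 0 at 35 DAF, against 11.2, 15.9 and 8.81 at 15 DAF (-2.82 ± 0.67, limma adjusted p = 0.00692; 0.102 under quantile normalization), and the degradome table listed it with GAM1 at a score of 2.

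mtr-miR164a, which acts on NAC factors, had 5461, 7178 and 4375 normalized reads at 35 DAF, against 7141, 9110 and 8159 at 15 DAF. Only the library numbered 2 at 35 DAF reached the range of 15 DAF, and the difference of -0.54 ± 0.22 did not pass (limma adjusted p = 0.0789). It passed with the replicate number as a block (limma adjusted p = 0.00899), without the 35 DAF library numbered 2 (-0.73, limma adjusted p = 0.0214), under voom (-0.62), after quantile normalization (-0.83) and with equal totals (-1.15). The miR169 sum, of a family that acts on NF-YA factors, stood at 148 ± 13.5 at 35 DAF and 296 ± 56.6 at 15 DAF (-0.98 ± 0.18, limma adjusted p = 0.000747). Its form gma-miR169e_L+3R+1, chosen after its values were seen, had 36.0, 20.4 and 41.3 at 35 DAF, against 201, 102 and 175 at 15 DAF. The low form mtr-miR169f_R+2_1ss1AT had 2.83, 0 and 0 at 35 DAF, against 19.5, 15.9 and 25.2 at 15 DAF (-3.74 ± 0.58, limma adjusted p = 0.000477).

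In miR171, whose guides act on SCL6-type GRAS factors, nta-miR171a was listed at 0 throughout at 35 DAF and had 20.5, 15.6 and 27.7 at 15 DAF. Its sequence begins like that of mtr-MIR171c-p5, named for the 5′ strand, and it was not listed in the degradome table. mdm-MIR171f-p3 fell to 136, 154 and 124 at 35 DAF, against 520, 590 and 553 at 15 DAF (-2.00 ± 0.14, limma adjusted p = 1.67e-06), whereas gma-miR171n had 496, 674 and 460 at 35 DAF and 305, 343 and 327 at 15 DAF (0.72 ± 0.17, limma adjusted p = 0.00694; 0.11 and not passed with equal totals). Both were chosen after their values were seen and both were listed in the degradome table with SCL6, mdm-MIR171f-p3 at a score of 1 and gma-miR171n at 3. The strands of miR396, which acts on growth-regulating factors, also parted. mtr-miR396a-5p had 421, 593 and 361 at 35 DAF, against 220, 288 and 241 at 15 DAF (0.85 ± 0.20, limma adjusted p = 0.00694; 0.25 and not passed with equal totals). mtr-miR396a-3p had 494, 723 and 436 at 35 DAF, against 787, 835 and 784 at 15 DAF (-0.57 ± 0.16, limma adjusted p = 0.0192), a call lost with quantile normalization (-0.13), with median centring (-0.37) and without 15 DAF replicate 2 (-0.55), 35 DAF replicate 1 (-0.51) or 35 DAF replicate 3 (-0.42). Both miR396 entries were chosen after their values were seen. The growth and organ development list had 14 of 69 tested members higher, 22 lower and 33 not passed, with a median of -0.29, where 13.2% of all entries rose and 23% fell. With equal totals 2 were higher and 32 lower, with a median of -0.87.

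Of the families that act on the small RNA machinery, the miR168 guide did not pass and miR1515 fell. gma-miR168a, which acts on ARGONAUTE 1, had 12506, 18561 and 9000 normalized reads at 35 DAF, against 13765, 17659 and 15411 at 15 DAF, with stages that overlapped (-0.28 ± 0.25, limma adjusted p = 0.451, and passed at -0.89 with equal totals and at -0.64 after quantile normalization). Its opposite strand gma-MIR168a-p3 had 3070, 4982 and 2818 at 35 DAF, against 1897, 2759 and 2412 at 15 DAF, and passed only with the replicate number as a block (0.59, limma adjusted p = 0.00993), with a difference of -0.02 under equal totals. csi-miR1515, of a family known in soybean to act on DCL2 and chosen after its values were seen, had 718, 279 and 926 at 35 DAF, against 2014, 1038 and 1574 at 15 DAF (-1.38 ± 0.44, limma adjusted p = 0.0327). The library numbered 2 was the lowest at both stages, and the limma adjusted p was 0.112 without 15 DAF replicate 1, 0.0898 without 15 DAF replicate 3, 0.0827 without 35 DAF replicate 2 and 0.0644 with quantile normalization. The sister form csi-miR1515_1ss11GA was listed in the degradome table with DCL2B at a score of 3.5. The small RNA pathway list had 1 of 11 tested members higher and 4 lower (13.2% and 23% over all entries), with a median of -1.21. The number that fell was 1 without 15 DAF replicate 3 or with the 6 libraries of 8106 alone, 2 without 15 DAF replicate 1 or 35 DAF replicate 1 or 2 and after quantile normalization or median centring, and 5 with equal totals.

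The list of families that trigger phased siRNAs from NB-LRR genes holds entries of both strands. It was the one list with more members higher than lower and a median above 0. Of its 15 members 5 rose, 1 fell and 9 did not pass, with a median of 0.98, where 13.2% of all entries rose and 23% fell. Of the 5 that rose, 2 of miR482 and 2 of miR2118 were named for the 5′ strand. Of these, gma-MIR482c-p5_2ss12GA20CT (1.70) shares the seed TCCCAAT with the 3′ entry gma-miR482a-3p_L-2_1ss14GA. Apart from its last base it has the same sequence as the start of that entry, so its name does not make it an opposite strand. All 3 miR482 and all 4 miR1507 entries named for the 3′ strand did not pass. With the replicate number as a block 9 rose and 1 fell, as they did without the libraries numbered 2, and with equal totals 4 rose and 2 fell with a median of 0.37. gma-miR482b-3p, the second most abundant entry, had 291057, 217129 and 302462 normalized reads at 35 DAF, against 210177, 165779 and 193079 at 15 DAF. These stages did not overlap, but the difference of 0.50 ± 0.20 did not pass (limma adjusted p = 0.0735). It passed with the replicate number as a block (limma adjusted p = 0.00063), without the libraries numbered 2 (0.56, limma adjusted p = 0.00269), after median centring (0.71) and under voom (0.59), and was -0.11 with equal totals and -0.28 with quantile normalization. gma-miR482a-3p_L-2_1ss14GA had 39461, 15470 and 57323 at 35 DAF, against 56075, 31606 and 44323 at 15 DAF, so that the libraries at 35 DAF spanned the whole range at 15 DAF, with replicate 2 the lowest at each stage. On the 5′ strand, mdm-miR482a-5p_L-1_2ss11TG20AT had 73.9, 98.5 and 56.9 at 35 DAF, against 25.1, 33.2 and 23.9 at 15 DAF (1.43 ± 0.25, limma adjusted p = 0.00106). In miR2118 all 3 tested forms rose. mtr-miR2118_2ss3AG18TG, chosen after its values were seen, had 9409, 6134 and 11554 at 35 DAF, against 5067, 3836 and 4513 at 15 DAF (0.98 ± 0.23, limma adjusted p = 0.00712), a call lost with equal totals (0.37) and quantile normalization (0.47). mtr-MIR2118-p5_2ss14TC18TC had 247, 365 and 183 at 35 DAF, against 45.1, 66.5 and 41.1 at 15 DAF (2.33 ± 0.31, limma adjusted p = 0.000164). gma-MIR2118a-p5_2ss2AG20GT, also chosen after its values were seen, had 1247, 1041 and 1350 at 35 DAF, against 591, 479 and 577 at 15 DAF (1.14 ± 0.14).

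Of the nutrient families, the sums of miR395, miR397 and miR399 fell, and those of miR398, miR408 and miR2111 did not pass. mtr-miR397-5p, of a family that acts on laccases, was listed at 0 throughout at 35 DAF and had 15.8, 22.2 and 20.2 normalized reads at 15 DAF. The degradome table listed it with PYRE-F (score 3) and not with a laccase symbol. The copper family miR398, which acts on copper superoxide dismutases, split by form. ahy-miR398_R+1 had 147, 269 and 110 at 35 DAF, against 52.1, 72.0 and 58.8 at 15 DAF (1.42 ± 0.33, limma adjusted p = 0.006; 0.82 and not passed with equal totals). mtr-miR398b had 142, 230 and 127 at 35 DAF, against 437, 565 and 513 at 15 DAF (-1.64 ± 0.27, limma adjusted p = 0.000695). In the degradome table the first form stood with PBS1 (score 4) and the second with PBS1 and PERK10 (4) and Prep (3). Neither was listed with a superoxide dismutase symbol. Their seeds are identical, as the sequences show.
ahy-miR398_R+1: tGTGTTCTcaggtcacccctt
mtr-miR398b: tGTGTTCTcaggtcgcccctg
The hairpin arms split as well: ahy-MIR398-p5_1ss9CA had 15.4, 25.5 and 8.13 at 35 DAF and was listed at 0 at 15 DAF, while gma-MIR398d-p3 was listed at 0 at 35 DAF and had 19.1, 17.3 and 12.6 at 15 DAF. Of 8 tested members of the copper list 2 rose and 3 fell (13.2% and 23% over all entries), with a median of -1.93. Without 15 DAF replicate 1 and under voom 6 fell, with medians of -2.91 and -3.94.

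mtr-miR395a_L+1R-1_1ss21TC, of the sulfate-responsive family that acts on ATP sulfurylase, had 34.7, 44.6 and 33.9 normalized reads at 35 DAF, against 176, 231 and 214 at 15 DAF (-2.43 ± 0.22, limma adjusted p = 8.74e-06). The degradome table listed it with APS1, an ATP sulfurylase gene, at a score of 3.5. The shorter form mtr-miR395a_L-1, chosen after its values were seen, had 4.44, 8.71 and 6.10 at 35 DAF, against 27.9, 36.4 and 35.7 at 15 DAF, and was listed with APS1 at a score of 2. The phosphate family miR399 fell as a sum, at 30.0 ± 14.4 at 35 DAF and 60.4 ± 17.1 at 15 DAF (-1.04 ± 0.37, limma adjusted p = 0.0358), a call that ended without 15 DAF replicate 2 (-0.87), 15 DAF replicate 3 (-0.96), 35 DAF replicate 1 (-0.91) or 35 DAF replicate 3 (-0.82), and over known entries alone (-0.76, limma adjusted p = 0.102). The hairpin arm ppe-MIR399k-p5, chosen after its values were seen, was listed at 0 throughout at 35 DAF and had 7.90, 14.2 and 10.5 at 15 DAF, and all 3 tested guide forms of miR399 missed the threshold. mtr-miR2111a-5p_R-1, of another phosphate family, did not pass, at 39.6, 67.3 and 21.7 at 35 DAF, against 15.8, 38.4 and 42.8 at 15 DAF. Of 10 tested members of the sulfur and phosphate list 0 rose and 4 fell (13.2% and 23% over all entries). The median was -0.87, and 7 fell with equal totals.

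Among families registered in peanut, ahy-miR3518 had 409, 486 and 424 normalized reads at 35 DAF, against 115, 109 and 112 at 15 DAF (1.96 ± 0.14, limma adjusted p = 2e-06). Its hairpin partner ahy-MIR3518-p5 rose with it, at 60.6, 113 and 67.8 at 35 DAF, against 13.0, 13.9 and 6.72 at 15 DAF (2.74 ± 0.41, limma adjusted p = 0.000399). No target of miR3518 is in the degradome table. ahy-MIR3516-p5, chosen after its values were seen, had 6.46, 8.04 and 0 at 35 DAF, against 37.2, 36.7 and 25.2 at 15 DAF (-3.04 ± 0.67, limma adjusted p = 0.00457). The degradome table listed it with ROS1, a DNA demethylase gene, at a score of 0. ahy-miR3514-3p (0.11 ± 0.24) and ahy-MIR3509-p3_2ss16AG20TG (-0.55 ± 0.70) did not pass, and the second had 728, 167 and 1365 at 35 DAF, against 1204, 513 and 852 at 15 DAF. The Arachis list had 2 of 16 tested members higher and 2 lower (13.2% and 23% over all entries).

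Outside these lists, a miR4376 form rose. In tomato this family is known to act on a calcium ATPase, and gma-miR4376-5p_R-1_2ss16AG21GA had 438, 670 and 341 normalized reads at 35 DAF, against 111, 178 and 131 at 15 DAF (1.75 ± 0.27, limma adjusted p = 0.000472). ppe-MIR858-p5, whose family acts on MYB factors of flavonoid synthesis, had 164, 292 and 164 at 35 DAF, against 40.0, 53.7 and 46.6 at 15 DAF (2.08 ± 0.27, limma adjusted p = 0.00013). The degradome table listed it with MYB12 (score 3) and TT2 (4), both of that MYB class. mtr-miR530_1ss21CA had 746, 630 and 831 at 35 DAF, against 416, 330 and 437 at 15 DAF (0.90 ± 0.14, limma adjusted p = 0.000525; 0.29 and not passed with equal totals). It and ppe-MIR858-p5 were chosen after their values were seen. The legume miR1511 guide, gma-miR1511_R+1_1 and its forms 2 and 3 with the same listed values, had 15752, 24973 and 12999 at 35 DAF, against 9743, 13783 and 11309 at 15 DAF, with a difference of 0.58 that passed only with the replicate number as a block (limma adjusted p = 0.00757), under voom (0.44, limma adjusted p = 0.0266) and without 35 DAF replicate 3 (0.79, limma adjusted p = 0.0409), and that was -0.02 with equal totals. gma-miR1511_R-2, an 18-nt form, had 994, 3738 and 1082 at 35 DAF, against 203, 685 and 380 at 15 DAF, with the library numbered 2 highest at both stages. Its difference of 2.08 ± 0.69 (limma adjusted p = 0.038) did not pass with equal totals (1.47) or without 35 DAF replicate 2 (1.46), 15 DAF replicate 1 (1.64) or 15 DAF replicate 3 (2.09). ptc-miR6478_R-2 had 3.64, 11.1 and 4.07 at 35 DAF, against 0, 3.12 and 0 at 15 DAF, a call (2.03, limma adjusted p = 0.0389) that ended with equal totals, with a pseudocount of 10 (0.54) and without any of the libraries but 15 DAF replicate 2 (1.60 to 2.29). mtr-miR2199_1ss17AG was listed at 0 at 35 DAF and had 9.76, 5.54 and 10.5 at 15 DAF. The legume list had 2 of 21 tested members higher and 4 lower (13.2% and 23% over all entries), with a median of 0.22. With equal totals 0 were higher and 10 lower, with a median of -0.38. The number higher was 6 without 35 DAF replicate 3, with the replicate number as a block or under voom, 1 without 15 DAF replicate 2 or 35 DAF replicate 1, and 0 without 15 DAF replicate 1 or 3 or 35 DAF replicate 2.

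Several of the predicted candidates that fell lay close to known families. PC-3p-8612_823 was listed at 0 throughout at 35 DAF and had 19.1, 20.4 and 22.7 normalized reads at 15 DAF. It shares a run of 19 bases with a listed form of miR171. PC-5p-15503_485 was listed at 0 throughout at 35 DAF and had 104, 51.3 and 74.7 at 15 DAF. Its reverse complement shares a run of 16 bases with csi-miR1515_R+1_1ss11GA, a listed form of miR1515. The form printed below, csi-miR1515, fell too but lacks the substitution of that form and shares a shorter run. PC-3p-646_6682, chosen after its values were seen, has the seed GCTCACT of 2 opposite strands of miR156 and had 4.04, 7.37 and 16.3 at 35 DAF, against 162, 189 and 159 at 15 DAF (-4.24 ± 0.34, limma adjusted p = 4.26e-06).
PC-3p-8612_823: cTATTGAGccgtgccaatatc
mdm-MIR171f-p3: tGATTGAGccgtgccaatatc
PC-5p-15503_485: aTCTTGCAtgcaaaaatgatg
csi-miR1515: tCATTTTTgcgtgcaatgatcc
PC-3p-646_6682: tGCTCACTctcttgctgtcacc
gma-MIR156o-p3_2ss21GA23TA: tGCTCACTactctttctgtcaga
PC-3p-23476_334, PC-5p-94368_80 and PC-5p-55460_145 were likewise listed at 0 at 35 DAF, with means of 68.2 ± 27.3, 36.6 ± 5.58 and 28.9 ± 8.11 at 15 DAF. Of 17 candidate hairpins with both arms tested, both arms fell in 4, 1 arm fell in 3 and no arm passed in 10. Candidates that rose numbered 5, with log2 differences of 0.51 to 1.50. PC-3p-107_28599 had 2775, 4087 and 2551 at 35 DAF, against 940, 1267 and 1188 at 15 DAF (1.45 ± 0.21, limma adjusted p = 0.000251), and PC-3p-19966_386 had 32.3, 40.9 and 35.2, against 9.76, 16.3 and 10.9 (1.50 ± 0.27). PC-3p-2930_2072 (0.51), PC-3p-14284_521 (0.70) and PC-5p-5478_1230 (0.60) lost the call with equal totals (-0.09, 0.11 and 0), without a filter on low values (limma adjusted p = 0.0616, 0.0678 and 0.0519) and without 15 DAF replicate 1 or 3.

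Summed per family, 28 of 58 families passed (48.3%), 14 higher (24.1%) and 14 lower (24.1%) at 35 DAF. Without the libraries numbered 2, 17 rose and 20 fell, with equal totals 6 rose and 24 fell, and with the block 18 rose and 20 fell. Besides the families above, higher sums were those of miR8762 (1.89 ± 0.64, lost with a pseudocount of 0.5 and without any of the libraries but 35 DAF replicate 2), miR2916 (1.23 ± 0.26), miR6478 (0.99 ± 0.23), miR6300 (0.97 ± 0.26) and miR8723 (0.96 ± 0.28, lost without 15 DAF replicate 1), and lower ones those of miR4414 (-1.49 ± 0.42), miR1509 (-1.06 ± 0.12), miR3508 (-0.99 ± 0.22) and miR5206 (-0.73 ± 0.26, lost after median centring and without 15 DAF replicate 2 or 3 or 35 DAF replicate 1 or 3). With equal totals the calls of miR2118 (0.42), miR530 (0.34), miR6300 (0.36), miR6478 (0.40), miR8723 (0.38) and miR8762 (1.34) ended, and the miR166 sum, 0.49 ± 0.14 as deposited, stood at -0.12. Of the arms of miR2916, peu-MIR2916-p5_1ss5AG rose, with 122, 304 and 164 normalized reads at 35 DAF, against 14.9, 42.3 and 26.02 at 15 DAF (2.79 ± 0.44, limma adjusted p = 0.000535). The degradome table listed 55.8% of the 52 rising entries, 36.3% of the 91 falling ones and 34.9% of the 252 others, with no library named for a site.

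**Figure D3:**
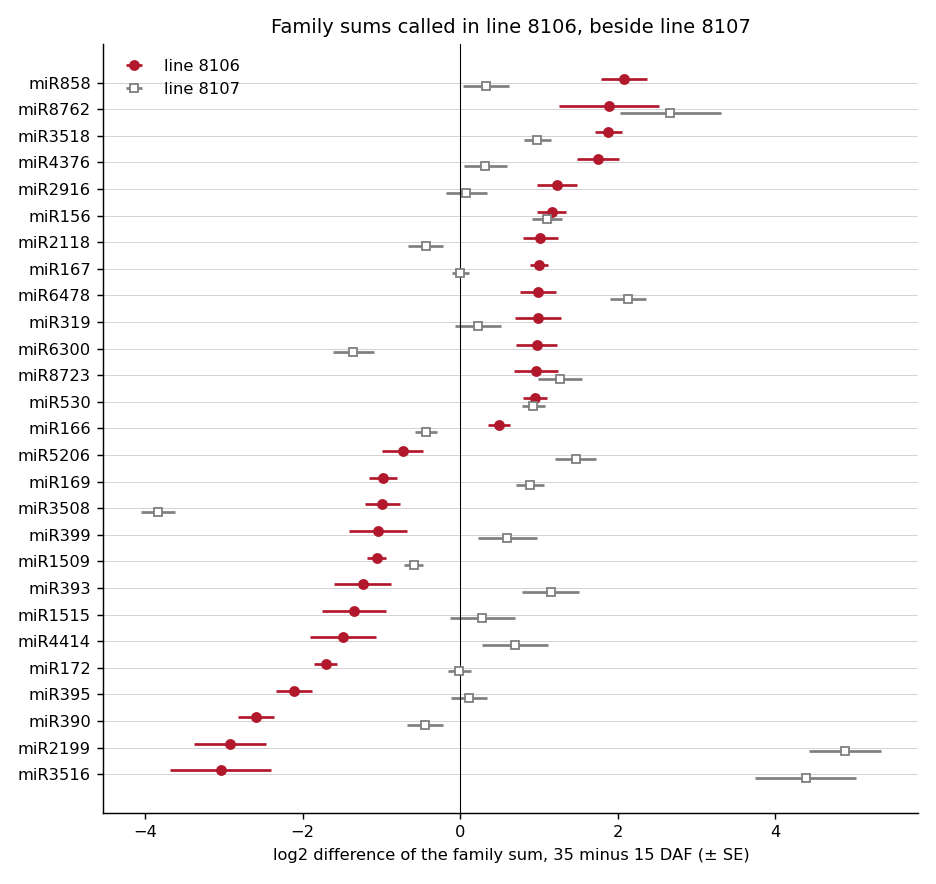
Log2 difference between 35 and 15 DAF of the 27 family sums that passed in line 8106 and were listed above 0 at both stages, with SE bars, red circles for 8106 and open grey squares for the same families in line 8107. miR858 (2.08) is at the top and miR3516 (-3.04) at the bottom for 8106, and the lines lie close together for miR156 and miR530.

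Sums of a family's entries named for each strand can be compared within a library, free of how libraries were scaled. These sums join different hairpins, and the strand in a name does not tell guide from opposite strand. In miR171, lja-miR171d-5p and mdm-MIR171f-p3 count for different strands, though the degradome table listed both with SCL6 at a score of 1. Of 15 families with entries named for both strands, 10 changed their ratio of the 3′ to the 5′ strand (66.7%; limma, adjusted p under 0.05). The ratio of miR167 fell by 3.20 on the log2 scale (SE 0.11, limma adjusted p = 2.2e-09), since the 5′ strand summed to 433434 ± 50732 at 35 DAF and 213159 ± 7984 at 15 DAF and the 3′ strand to 386 ± 82.8 and 1731 ± 56.5. Other falls were those of miR2916 (-2.55 ± 0.48), miR156 (-1.97 ± 0.39), miR396 (-1.50 ± 0.14), miR171 (-1.01 ± 0.17), miR160 (-0.85 ± 0.15) and miR172 (-0.47 ± 0.15), the last lost without 35 DAF replicate 1 or 2. The ratio was higher at 35 DAF for miR1507 (1.50 ± 0.29) and miR319 (0.82 ± 0.24). For miR1507, mtr-miR1507-3p_L+1R-1 had 1758, 1740 and 1852 at 35 DAF, against 1859, 1687 and 1880 at 15 DAF, while mtr-miR1507-5p_R-1_2ss5TA18AG had 43.6, 86.1 and 42.0 at 35 DAF, against 140, 171 and 153 at 15 DAF. Both miR1507 entries were chosen after their values were seen. In miR398 the 3′ strand was listed at 0 at 35 DAF and the 5′ strand at 15 DAF, so no fold is given. Guides whose names carry no strand, such as mtr-miR156e and mtr-miR166a, are not in these ratios.

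**Figure D4:**
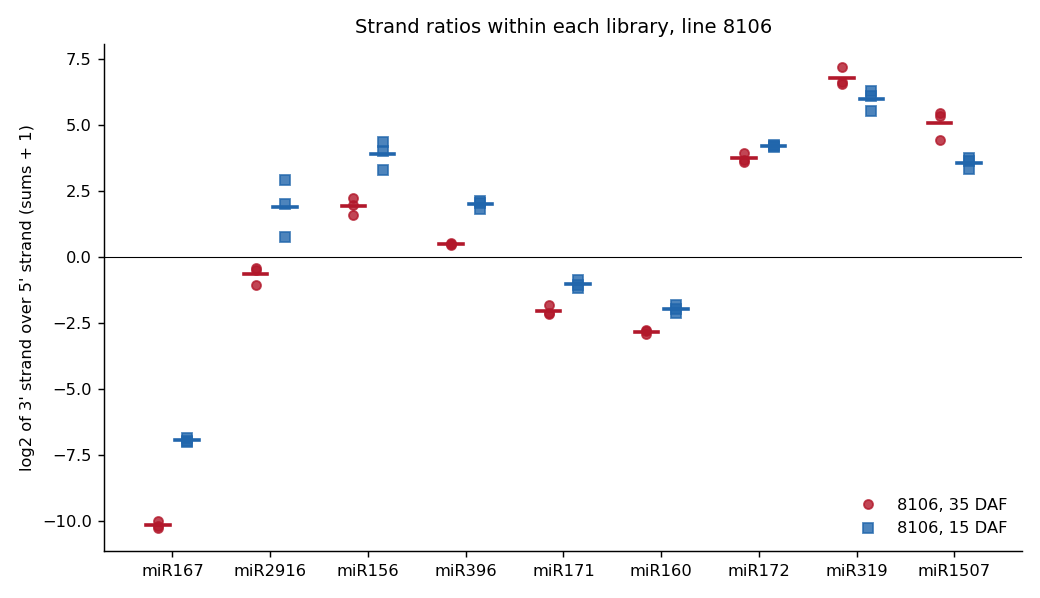
Log2 ratio of the summed 3′ strand to the summed 5′ strand (each + 1) of 9 families in each library of line 8106, red circles for 35 DAF and blue squares for 15 DAF, with a line at each mean. The miR167 ratio lies near -10 at 35 DAF and near -7 at 15 DAF, and only miR319 and miR1507 are higher at 35 DAF.

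The opposite strand was the lower one at 35 DAF in miR156 (MIR156c), miR159, miR160, miR166, miR167 and miR1511, where gma-MIR1511-p5, chosen after its values were seen, had 113, 181 and 115 normalized reads at 35 DAF, against 568, 704 and 623 at 15 DAF (-2.23 ± 0.24, limma adjusted p = 3.78e-05). Arms named for the 5′ strand were higher at 35 DAF in miR482 and miR2118, and so was ahy-miR156b-3p. In miR482 this holds for mdm-miR482a-5p_L-1_2ss11TG20AT, while gma-MIR482c-p5_2ss12GA20CT has the seed of a 3′ entry despite its name. Many of the falling opposite strands begin with G. Sequences that begin with G made up 0.891, 0.864 and 1.13% of the values at 35 DAF, against 2.26, 2.27 and 2.20% at 15 DAF. Of 10 shares by length and first base this was the only one whose stages did not overlap, with an exact two-sided permutation p of 0.1, the smallest that 3 against 3 can give, and 0.67 adjusted over the 10. Leaving out the 2 most abundant entries, 2 of the 10 shares had stages apart. In line 8107 the mean share that begins with G was 4.3% at 35 DAF and 2.43% at 15 DAF. In line 8106, of 58 tested entries that begin with G, 25 fell (43.1%) and 10 rose, against 23.3% of 150 that begin with T, 15.9% of 132 with A and 18.2% of 55 with C that fell. Several of the 25 are variants of 1 miR166 sequence and not independent, since all 5 tested with the seed GAATGTT fell. Sequences of 21 nt made up 66.0 ± 8.50% of the values at 35 DAF and 60.0 ± 5.20% at 15 DAF, and those of 22 nt 32.2 ± 8.10% and 37.7 ± 4.85%, with stages that overlapped. Per the labels' protocols, fractions of 22 to 30 nt were cut from the gel, and the part of that cut in these shares was not tested.

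As deposited, the stage change of 8106 differed from that of line 8107 for 162 of the 395 entries (41%; limma, the difference of the changes, adjusted p under 0.05). The listed totals of 8107 were lower at 35 DAF (464658 to 527704) than at 15 DAF (604325 to 641690), the reverse of 8106. Their part in the difference of a single entry or sum was not tested. Of the 52 entries that rose in 8106, 16 also rose in 8107, 14 fell and 22 did not pass there, and for 36 the difference of the changes passed. Of the 91 that fell, 33 also fell in 8107, 19 rose and 39 did not pass, and for 54 the difference passed. The rise of mtr-miR156e was found in both lines, at 2.35 ± 0.22 in 8106 and 1.90 in 8107, and its difference of 0.44 did not pass (limma adjusted p = 0.275). ahy-miR156b-3p (1.48 and 1.59) and mtr-miR397-5p, listed at 0 at 35 DAF in 8106 and lower by 3.30 in 8107, did not differ beyond the test either. The miR172 sum fell by 1.71 in 8106 and changed by -0.01 in 8107, a difference of -1.70 (limma adjusted p = 0.000101). The miR390 and miR395 sums fell by 2.59 and 2.11 in 8106, against -0.45 and 0.11 in 8107, with differences of -2.14 and -2.22 (limma adjusted p = 0.000219 and 0.000166). The miR167 strand ratio moved in opposite directions, -3.20 in 8106 and 2.64 in 8107. So did that of miR1507, 1.50 in 8106 and -3.80 in 8107.

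**Figure D5:**
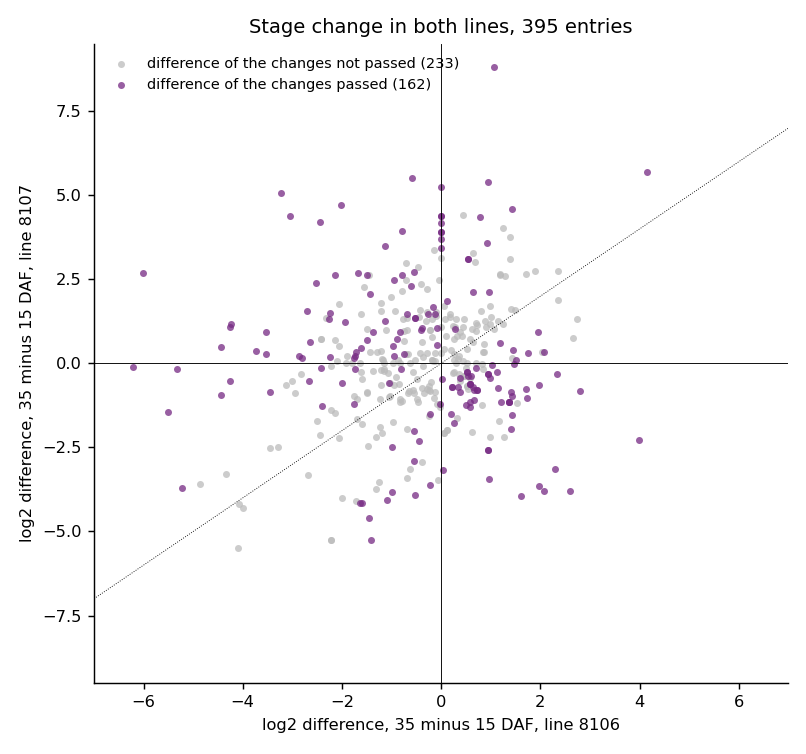
Log2 difference between 35 and 15 DAF of the 395 tested entries in line 8106 (horizontal axis) and line 8107 (vertical axis), purple for the 162 whose changes differed by the test and grey for the other 233, with a dotted line where both changes are equal. Purple points lie on both sides of 0 on each axis, among them entries that fell in 8106 and rose in 8107.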

How the data were processed

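Small RNAs of whole fresh peanut seeds were sequenced in 12 libraries, 3 for each of 4 groups, and sequenced cleavage fragments (degradome) came from other libraries of the series. The authors deposited a signal per sequence and library, headed as normalized reads. Bowtie is named in the submitters' processing notes, and the sources used here do not give the method of normalization. Per the file headers, the degradome table gives an alignment score per small RNA and transcript, and it names no library. No genome was used, so positions are not given.

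Repeated lines of a sequence were read once, which left 795 entries from 1082 lines, and 79 entries in 36 sets had the same values in all 12 libraries. In line 8106, 98.2 to 99.4% of the values above 0 were within 0.02 of a whole multiple of a step taken as 1 read, from which depth was estimated. Entries that reached 10 in 3 or more of the 12 libraries were fitted on log2(value + 1) with limma 3.58.1 (trended eBayes) in R 4.3.3, with 1 mean for each of the 4 groups, and called at a Benjamini-Hochberg adjusted p under 0.05. The p-values in the text are from that fit unless another setting is named, and fold changes of low entries are understated by the pseudocount of 1. Family sums were fitted in the same way and strand ratios without the trend. Shares by length and first base were compared by an exact permutation test over 3 against 3 libraries. The scripts were tested on simulated data.

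Libraries with the same replicate number deviated together in line 8106, with correlations of 0.32, 0.68 and 0.12 over 395 entries. Libraries of different numbers reached 0.59 (35 DAF replicate 3 with 15 DAF replicate 1) and otherwise lay between -0.65 and 0.05. The labels give no pairing, and the 0.59 of libraries with different numbers was above the values of numbers 1 and 3. Pairing by number was therefore not established. The reported fit has no block, and the fit with the number as a block is given as an alternative where it changed a call. The members and lists were chosen with earlier results of these data known. Named entries were, among called entries whose stages did not overlap, those with the most extreme differences of each kind (10 and 10 known, 4 and 4 hairpin arms, 5 and 5 candidates), the 10 most abundant entries and the 2 most abundant of each list, which gave 57 entries. The others were chosen after their values were seen.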

Additional observations from a re-analysis of the deposited data

Results flagged for a closer look

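Of the 124 entries, family sums and strand ratios examined, 93 had a stage change in line 8106 that differed from that in line 8107 by the test of the difference itself (limma interaction, adjusted p from 1.91e-10 to 0.0466). Values below are log2 stage changes of 8106 minus those of 8107, so a negative value means a lower change in 8106. For entries listed at 0 in all 3 libraries of a group the value depends on the pseudocount. The scale of the libraries also differed between the lines. Listed totals were higher at 35 than at 15 DAF in 8106 (998924 to 1086382 against 660450 to 684045). In 8107 they were lower (464658 to 527704 against 604325 to 641690). The count of entries that passed was also taken under other scalings and is in the range given below. The single differences listed here are as deposited, and the part of the scale in each was not tested.

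The ratio of the 3′ to the 5′ strand differed by -5.85 for miR167 and by 5.30 for miR1507, and each moved in opposite directions in the lines. The other ratios differed by 2.83 for miR319 (0.82 in 8106 and -2.01 in 8107), -4.08 for miR2916, -1.28 for miR160, 1.39 for miR172, -0.79 for miR396 and -4.87 for miR398. The underlying entries differed likewise. ahy-miR167-3p_L-1 changed by -2.15 in 8106 and 2.63 in 8107, a difference of -4.78, while the guide ahy-miR167-5p differed by 1.08 and the miR167 sum by 1.00. mtr-miR1507-5p_R-1_2ss5TA18AG differed by -4.14 and mtr-miR1507-3p_L+1R-1 by 1.18. mtr-MIR167a-p3_1ss14TC differed by -5.16.

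In the miR156 family, ahy-miR156b-5p_R+2 differed by -1.54, rising in both lines. Other named entries of the family differed by -3.74 for ptc-MIR156c-p3_1ss12AC, -4.04 for gma-MIR156o-p3_2ss21GA23TA, -4.26 for mdm-miR156a_1ss11GA, which fell in 8106 and rose in 8107, and 2.62 for ppe-miR156a_R+1_1ss5AG. mtr-miR172d-3p_R+1 differed by -1.57, mtr-miR172b_R+1 by -1.89 and the miR172 sum by -1.70.

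Among auxin families, mtr-miR160a differed by 1.27, gma-MIR160e-p3_1ss5GA by -0.53, mtr-miR390 and the miR390 sum by -2.14 each, mtr-miR390_L+1 by -2.61 and the miR393 sum by -2.39. mtr-miR393a_R+1_1 and mtr-miR393a_R+1_2, which share their values, changed by 0.55 in 8106 and 3.11 in 8107, a difference of -2.56. Among families of growth and organ development, mtr-miR166a and the miR166 sum differed by 0.93 each, mtr-miR166a_1ss20CT by 1.75, mdm-miR166a_L+2R-2 by 0.57 and mtr-miR166g-5p by -1.18. mtr-miR319a-3p_R+1_2 differed by -3.30 and mtr-miR319a-3p_L+1_1ss21CT by 1.50. gma-miR159a-5p_2ss19TA20TA differed by -1.95, and mtr-miR164a by 2.35, with changes of -0.54 in 8106 and -2.89 in 8107. The miR169 sum differed by -1.86, gma-miR169e_L+3R+1 by -3.58 and mtr-miR169f_R+2_1ss1AT by -4.12. In miR171, mdm-MIR171f-p3 differed by -1.42, gma-miR171n by 1.51 and nta-miR171a by -3.50.

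Of the families that trigger phased siRNAs, gma-miR482b-3p changed by 0.50 in 8106 and -1.23 in 8107, a difference of 1.73, and mdm-miR482a-5p_L-1_2ss11TG20AT differed by -3.17. The miR2118 sum differed by 1.46, mtr-miR2118_2ss3AG18TG by 1.40, mtr-MIR2118-p5_2ss14TC18TC by 2.64 and gma-MIR2118a-p5_2ss2AG20GT by 1.86. Of the miRNAs of the small RNA machinery, gma-MIR168a-p3 differed by 1.89 and the miR1515 sum by -1.63.

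In the nutrient families, ahy-miR398_R+1 changed by 1.42 in 8106 and -1.55 in 8107, a difference of 2.96. mtr-miR398b differed by 2.52 and ahy-MIR398-p5_1ss9CA by 6.26. mtr-miR395a_L+1R-1_1ss21TC differed by -2.27, mtr-miR395a_L-1 by -2.43, the miR395 sum by -2.22, the miR399 sum by -1.64 and ppe-MIR399k-p5 by -3.82.

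Among families registered in peanut, ahy-MIR3516-p5 and the miR3516 sum differed by -7.44 each, with a change of -3.04 in 8106 and 4.39 in 8107. ahy-MIR3509-p3_2ss16AG20TG differed by -3.27, ahy-miR3514-3p by -1.75, ahy-miR3518 by 1.02, the miR3518 sum by 0.90 and the miR3508 sum by 2.86. Among legume families, mtr-miR2199_1ss17AG differed by -8.30 and the miR2199 sum by -7.81, lower in 8106 and higher in 8107. Both met the filter only with the libraries of 8107 counted. Among the differences above, so did ahy-MIR398-p5_1ss9CA, mtr-miR390_L+1, ppe-MIR399k-p5, mtr-miR172b_R+1, mtr-miR393a_R+1_1 and mtr-miR393a_R+1_2. The 3 forms of gma-miR1511_R+1 differed by 1.18, gma-miR1511_R-2 by 5.88, the miR1509 sum by -0.47 and the miR4414 sum by -2.19.

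Of the remaining families, gma-miR4376-5p_R-1_2ss16AG21GA and the miR4376 sum differed by 1.43 each, and ppe-MIR858-p5 and the miR858 sum by 1.75 each. peu-MIR2916-p5_1ss5AG differed by 3.60 and the miR2916 sum by 1.15. The sums of miR5206, miR6300 and miR6478 differed by -2.21, 2.33 and -1.14. Among predicted candidates the differences were -8.70 for PC-3p-23476_334, -6.11 for PC-5p-15503_485, -5.40 for PC-3p-646_6682, -4.93 for PC-3p-8612_823 and -1.52 for PC-5p-94368_80. PC-3p-19966_386 differed by 1.40, PC-3p-107_28599 by 1.04 and PC-5p-5478_1230 by 0.97.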

How the results depend on the processing

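Of the 143 calls of entries, 138 were shared with a pseudocount of 0.5, 141 with a pseudocount of 10, 115 with equal totals, 116 with quantile normalization, 125 with median centring and 142 with voom and sample quality weights, which made 183 calls. A filter at 50 left 111 calls, no filter 138, the 6 libraries of 8106 alone 120, and leaving out 1 library gave 117 to 147 calls of entries and 23 to 35 of family sums. The filter set on the 6 libraries of 8106 kept 134 of the 143 calls. With those libraries alone in the fit, 10 named entries lost the call (limma adjusted p = 0.0509 to 0.127). They were mtr-miR166a, mtr-miR166a_1ss20CT, mtr-miR396a-3p, mtr-miR159b_R-1_1ss7GT, ahy-MIR3516-p5, csi-miR1515, gma-miR319f_R+1, ptc-miR6478_R-2, gma-miR1511_R-2 and PC-3p-14284_521. The sums of miR166, miR393, miR399 and miR5206 lost it as well. Between 119 and 228 entries passed the test of the difference between the lines in the settings it was run in. The planned count test on whole reads was not run: below a second header line the values of a library stand 1 column to the right, and the columns as headed did not pass the check for whole reads. Voom on the estimated reads was run.

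With equal totals 24 entries rose, against 52 as deposited, and 6 family sums rose and 24 fell. The direction turned there for ahy-miR3514-3p (-0.50), gma-MIR168a-p3 (-0.02), mtr-miR166a (-0.06), mtr-miR2111a-5p_R-1 (-0.22), mtr-miR159a_1ss21AT (-0.38), the 3 forms of gma-miR1511_R+1 (-0.02), gma-miR482b-3p (-0.11), PC-3p-2930_2072 (-0.09) and the sums of miR1511 (-0.02), miR159 (-0.41), miR166 (-0.12) and miR482 (-0.22). Quantile normalization turned gma-miR482b-3p (-0.28), mtr-miR172b_R+1 (0.21) and the sums of miR482 (-0.42) and miR396 (0.08), and median centring turned mtr-miR1507-3p_L+1R-1 (0.19) and the miR168 sum (0.05). The cause was not tested.

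With the replicate number as a block, all 143 calls were shared among 172, 38 family sums and 11 strand ratios passed, and the difference between the lines passed for 210 entries. Of the named results it added calls for mtr-miR164a, gma-miR482b-3p, gma-MIR168a-p3, gma-miR1511_R+1_1 and its 2 other forms, and the sums of miR160, miR164, miR482 and miR1511, and changed no other. The block together with equal totals, chosen after seeing the data, gave 34 higher and 146 lower entries, and the same entries turned direction, at the values above. The fits without the libraries numbered 2 and the family sums over known entries alone were also chosen after seeing the data.

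Leaving out each library in turn, ahy-miR3514-3p ranged from -0.03 to 0.34, mtr-miR2111a-5p_R-1 from -0.06 to 0.78, mtr-miR159a_1ss21AT from -0.08 to 0.45, mtr-miR1507-3p_L+1R-1 from -0.07 to 0.01, gma-miR482a-3p_L-2_1ss14GA from -0.79 to 0.15, ahy-MIR3509-p3_2ss16AG20TG from -1.21 to 0.30, and the sums of miR159 and miR168 from -0.10 to 0.41 and from -0.39 to 0.10. With entries of the same values read as 1, 3 of the 10 shares by length and first base had stages apart, and 2 did with known entries alone or without the 2 most abundant entries. Low entries limit the comparison, since 17 of the 91 that fell were listed at 0 throughout at 35 DAF and a listed 0 can stand for fewer than 6.0 reads.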
